A study of Mus musculus with 8 samples.

Results

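The genes described here encode MAX, the MYC proteins and the other factors that pair with MAX or with its relative MLX. They are *Max*, *Myc*, *Mycn*, *Mycl*, *Mxd1*, *Mxd3*, *Mxd4*, *Mxi1*, *Mnt* and *Mlx*, chosen by name and found on the array through the RefSeq accession of each probe. All 10 were present, with 12 probes, among 19751 named genes. Expression was measured in VV3 ESCs, male mouse embryonic stem cells with a Vasa::Venus transgene, a fluorescent reporter driven by the germ cell gene *Vasa* (*Ddx4*). The cells grew on inactivated STO fibroblast feeder cells in serum with LIF, and received siRNA against *L3mbtl2* (*L3mbtl2*-KD, 4 arrays) or the non-silencing AllStars siRNA (control, 4 arrays). The methods describe the knockdown profiles as those of sorted, reporter-positive cells and the control profiles only as those of transfected ESCs. Unless control cells were sorted as reporter-positive too, sorting and siRNA cannot be told apart. The replicates are biological according to the design text, so p-values measure the spread between separately prepared samples.

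MAX is a basic helix-loop-helix leucine zipper protein that binds the E-box CACGTG as a dimer. With MYC, MYCN or MYCL it activates growth genes, and with MXD proteins, MXI1 or MNT it recruits SIN3 corepressors to the same sites. MLX is a parallel partner that pairs with some MXD proteins, MNT and the glucose-responsive factors MondoA and ChREBP. In ESCs, MAX also pairs with MGA inside a variant Polycomb complex, PRC1.6, to which L3MBTL2 belongs, and the comparison asks which transcripts differ once *L3mbtl2* is reduced.

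Values are log2 intensities after subtraction of the 75th percentile of each array, so a value of 0 is the intensity that 75% of spots do not exceed. Intensities of different probes do not compare the amounts of their transcripts. *L3mbtl2* (NM_145993), the siRNA target, stood at 0.27, -0.18, -0.21 and -0.31 in control replicates 1 to 4 and at -1.45, -1.26, -1.58 and -1.73 in *L3mbtl2*-KD replicates 1 to 4. Every knockdown array lay below every control array, and 37.9% of the control intensity remained (limma adjusted p = 0.000944). Per array, between 59.5 and 66.6% of spots exceeded background clearly, and the number of arrays limits the precision.

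No network gene passed the test. *Mxi1* was not well above background on any array, and of the 9 genes tested in limma 0 rose and 0 fell at an adjusted p under 0.05, where 10.3% of 13652 genes tested rose and 11.7% fell. For changes of more than 2-fold the members' count was also 0, against 2.49% of genes higher and 3.21% lower. At an unadjusted p under 0.05, 2 members were higher (*Mxd4* and *Mlx*, background 16.9%) and 1 was lower (*Mycn*, background 18.8%). The median log2 fold change of the 9 genes was 0.16, against -0.01 over all genes, with 7 genes higher and 2 lower and values from -0.31 to 0.65. In bulk RNA, fewer cells of a type and less RNA per cell cannot be told apart.

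Samples with the same replicate number deviated together, and this changed the count. With the replicate number as a block in the limma fit, *Myc*, *Mxd4* and *Mlx* were higher and *Mycn* was lower, so that 3 and 1 of the 9 genes passed. The block raised the background too, to 23.6% of genes higher and 25.7% lower. With the slide as a block 1 member, *Mlx*, was higher and 0 were lower, against 13.9% and 15.3% of all genes. Only *Mxd4* had groups that did not overlap, 1 of 9 higher and 0 lower, where 12.6% and 13.8% of all genes did so. In all 4 same-numbered pairs, 5 members (*Myc*, *Mycl*, *Mxd3*, *Mxd4* and *Mlx*) were higher in *L3mbtl2*-KD ESCs and 1 (*Mycn*) was lower, against 31.2% and 32.8% of all genes. Whether the members differ from other genes in these counts was not tested.

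**Figure D1:**
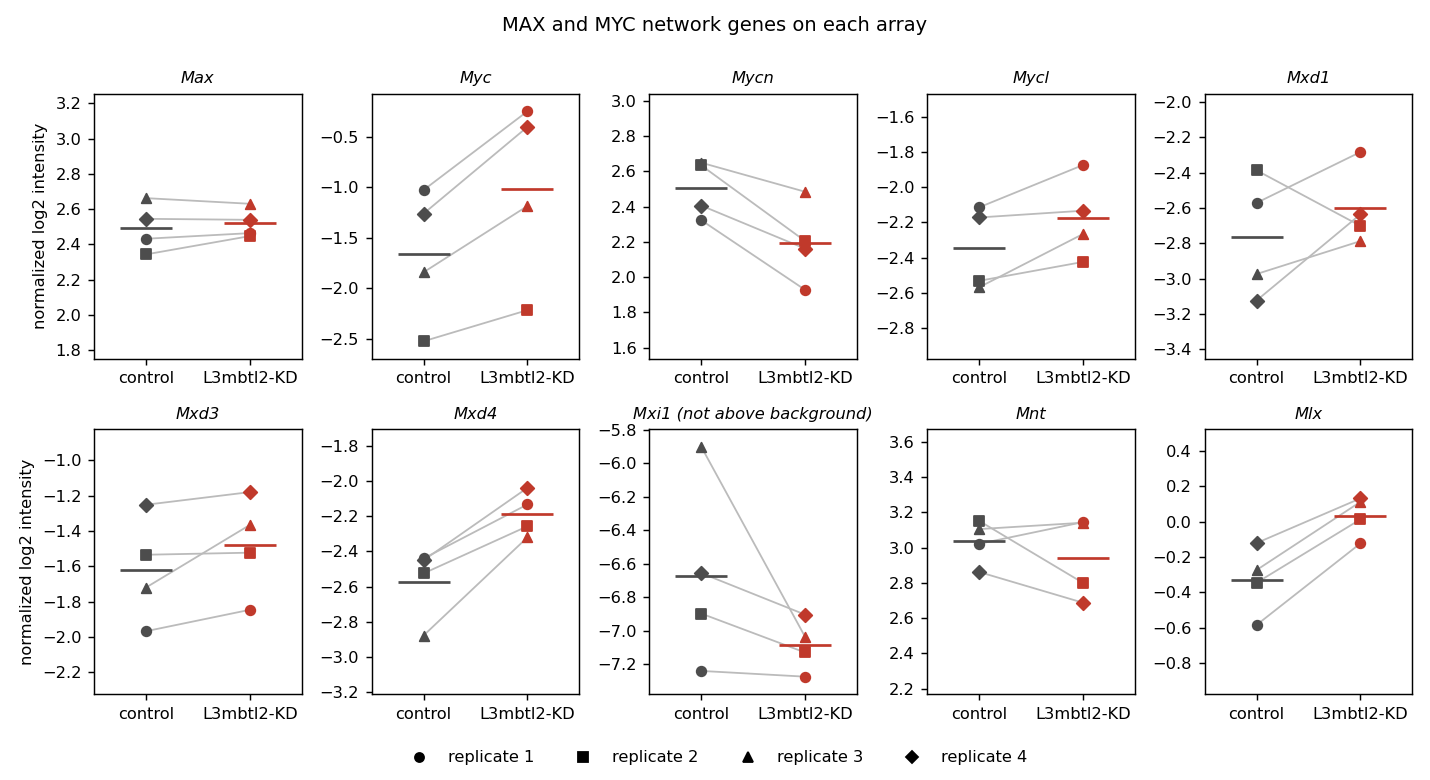
Normalized log2 intensity of the probe that stands for each of the 10 genes, in control (grey) and *L3mbtl2*-KD (red) ESCs, with each panel on its own scale. Symbols mark the replicate, lines join samples of one replicate number and bars are group means (n = 4); *Myc* differs more between replicate numbers than between groups, and *Mxd4* is the only gene tested whose groups do not overlap.

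*Max* (NM_008558, chr12:76937269-76962323 in GRCm38.p6) encodes the shared partner of the network. Its level was 2.43, 2.34, 2.66 and 2.54 in control replicates 1 to 4 and 2.46, 2.45, 2.63 and 2.54 in *L3mbtl2*-KD replicates 1 to 4. All knockdown arrays lay within the range of the control arrays, and of the pairs 2 were higher and 2 lower. The log2 fold change was 0.02 with a 95% confidence interval from -0.19 to 0.24, or from 0.876-fold to 1.18-fold (limma adjusted p = 0.887). The difference was 0.07 on slide 1 and -0.02 on slide 2, and its sign also turned with normexp background correction and with quantile normalization. The interval leaves room for small differences of *Max* in either direction.

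Among the MYC genes, *Myc* (NM_010849, chr15:61985341-61990361), the growth-promoting founder of the family, varied most. It stood at -1.03, -2.52, -1.84 and -1.26 in control replicates 1 to 4 and at -0.25, -2.22, -1.19 and -0.40 in *L3mbtl2*-KD replicates 1 to 4. Replicate 2 was the lowest of its group in both conditions and replicate 1 the highest, so the groups overlapped widely although each knockdown array was above the control of the same number. The pair differences were 0.78, 0.31, 0.66 and 0.86. Without the block the log2 fold change of 0.65 had an interval from -0.43 to 1.73 (limma adjusted p = 0.38, exact permutation p = 0.286), and with the replicate block from 0.38 to 0.92 (adjusted p = 0.00865 in limma, in a range from 0.00865 to 0.659 over all alternatives). Within the slides the difference was 0.54 and 0.76.

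*Mycn* (NM_008709, chr12:12936093-12941836), a MYC gene of early embryonic and neural cells, went the other way. Control replicates 1 to 4 stood at 2.32, 2.63, 2.65 and 2.41 and *L3mbtl2*-KD replicates 1 to 4 at 1.93, 2.20, 2.48 and 2.16. Only *L3mbtl2*-KD replicate 3 reached into the control range, and all 4 pairs were lower in the knockdown, by log2 differences of -0.40, -0.43, -0.16 and -0.24. The log2 fold change of -0.31, or 80.8% of control, had an interval from -0.62 to -0.00048 (limma adjusted p = 0.148, exact permutation p = 0.0857). With the replicate block the interval was -0.47 to -0.15 (limma adjusted p = 0.0171, range over all alternatives 0.0171 to 0.305), and within the slides the difference was -0.41 and -0.20.

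*Mycl* (NM_008506, chr4:122995588-123002490), the remaining MYC gene, was at -2.35 ± 0.24 in control and -2.18 ± 0.23 in *L3mbtl2*-KD ESCs (SD, n = 4 each). Its ranges overlapped, and the log2 fold change of 0.17 had an interval from -0.18 to 0.52 (limma adjusted p = 0.481). The block left it short of the threshold (adjusted p = 0.0781 in limma).

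Of the MXD repressors, *Mxd4* (NM_010753, chr5:34176580-34187710), which is expressed in many differentiating cells, stood at -2.44, -2.52, -2.88 and -2.45 in control replicates 1 to 4. In *L3mbtl2*-KD replicates 1 to 4 it was at -2.13, -2.26, -2.32 and -2.04. All knockdown arrays were above all control arrays, by a small margin between *L3mbtl2*-KD replicate 3 and control replicate 1. The intensity was 1.31-fold that of control, with an interval from 1.08 to 1.58-fold (log2 fold change 0.39, limma adjusted p = 0.0589, exact permutation p = 0.0286, the smallest that 4 against 4 arrays allow). It passed with the replicate block (adjusted p = 0.00993) and with quantile normalization (log2 fold change 0.48, adjusted p = 0.033), while normexp gave the smallest log2 fold change, 0.25 (adjusted p = 0.144), within limma adjusted p-values from 0.00993 to 0.144 over all alternatives. Within the slides the difference was 0.29 and 0.48. Another *Mxd4* probe was above background on 1 array of each group and was not tested.

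*Mxd1* (NM_010751, chr6:86647044-86669234), the founding MXD gene, and *Mxd3* (NM_016662, chr13:55325170-55329900), an MXD gene of proliferating cells, differed less. *Mxd1* was at -2.76 ± 0.34 in control and -2.60 ± 0.22 in knockdown cells (SD, n = 4 each), a log2 fold change of 0.16 with an interval from -0.26 to 0.58 (limma adjusted p = 0.584). Its dimmer probe gave 0.12, and the difference was -0.01 on slide 1 and 0.34 on slide 2. *Mxd3* was at -1.62 ± 0.30 and -1.48 ± 0.28 (SD, n = 4 each), a log2 fold change of 0.14 with an interval from -0.28 to 0.56 (limma adjusted p = 0.645). For both genes the groups overlapped over most of their range. *Mxi1* (NM_001008542, chr19:53310128-53373293), the remaining MXD-type repressor, was well above background on 0 of the 8 arrays, and no difference can be given for it.

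*Mnt* (NM_010813, chr11:74830806-74845725) encodes the repressive MAX partner found in dividing and resting cells alike. It stood at 3.02, 3.15, 3.11 and 2.86 in control replicates 1 to 4 and at 3.14, 2.80, 3.14 and 2.69 in *L3mbtl2*-KD replicates 1 to 4. Replicates 1 and 3 were slightly above their controls and replicates 2 and 4 below them. The log2 fold change of -0.09 had an interval from -0.39 to 0.20 (limma adjusted p = 0.67).

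*Mlx* (NM_011550, chr11:101086707-101092207) encodes the partner of MondoA and ChREBP. Control replicates 1 to 4 stood at -0.59, -0.35, -0.27 and -0.12, and *L3mbtl2*-KD replicates 1 to 4 at -0.12, 0.01, 0.11 and 0.13. The lowest knockdown array and the highest control array met at -0.12, and the other arrays were separated, with replicate 1 the lowest and replicate 4 the highest of both groups. The fold was 1.29 with an interval from 1.07 to 1.55 (log2 fold change 0.37, limma adjusted p = 0.0603, exact permutation p = 0.0571). The limma adjusted p was 0.00656 with the replicate block, 0.0189 with the slide as a block and 0.0469 without control replicate 4, in a range from 0.00656 to 0.14 over all alternatives. Within the slides the difference was 0.41 and 0.32.

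Further partners of MAX and MLX were measured from a list of 3 genes. *Mlxipl* (NM_021455), which encodes ChREBP, rose, and 1 of 3 rose and 0 fell, against 10.3% and 11.7% of all genes. Control replicates 1 to 4 were at -1.04, -1.22, -1.41 and -1.29 and *L3mbtl2*-KD replicates 1 to 4 at -0.55, -0.83, -0.60 and -0.56. The groups did not overlap, and *L3mbtl2*-KD replicate 2 was the lowest of its group. The fold was 1.52 (log2 fold change 0.61, interval 0.36 to 0.85, limma adjusted p = 0.00714), and the difference was 0.44 on slide 1 and 0.77 on slide 2. *Mga* (NM_013720), whose protein joins MAX to PRC1.6, was at -0.17 ± 0.14 in control and -0.06 ± 0.09 in knockdown cells (SD, n = 4 each), with an interval of the log2 fold change from -0.11 to 0.33 (limma adjusted p = 0.464). *Mlxip* (NM_133917), which encodes MondoA, had a log2 fold change of 0.17 with an interval from -0.23 to 0.57 (limma adjusted p = 0.546).

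**Figure D2:**
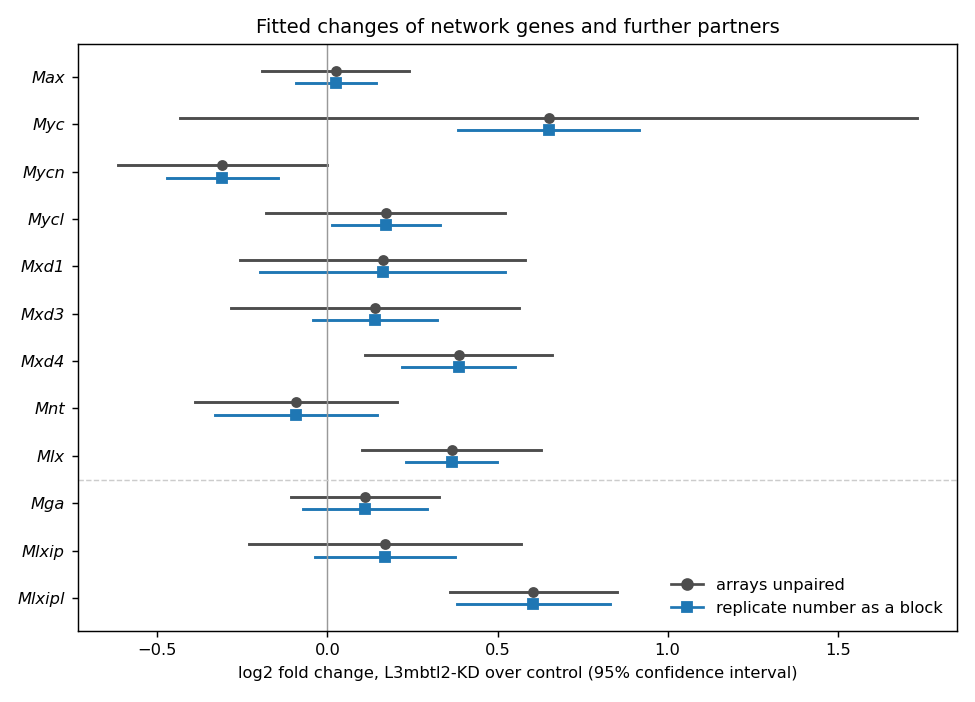
Fitted log2 fold change of *L3mbtl2*-KD over control with its 95% confidence interval for the 9 network genes tested and, under the dashed line, 3 further partners. Circles are from the fit without pairing and squares from the fit with the replicate number as a block; the interval of *Myc* shrinks from -0.43 to 1.73 down to 0.38 to 0.92.

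Since these proteins bind the E-box, the promoters of their own genes were searched for it. RefSeq windows of 300 bases, 250 before and 50 after a transcript start in GRCm38.p6, were given for 9 of the 10 genes, with 11 windows, and *Myc* is not among them. CACGTG, which reads the same on both strands, is in 4 windows, those of *Max*, *Mxd4*, *Mnt* and *Mlx*, and in 7.15% of all 32851 windows of this length. The match is a description of the letters and not evidence of binding. It is also in one of the windows of *Mlxipl* and in that of *Arrdc4*, a MondoA target described further on. The windows of *Mga*, *Mlxip* and *Txnip*, which were searched as well, do not hold it. The E-box begins 3 bases before the start in *Max*, 40 before it in *Mlx*, 98 in *Mlxipl*, 123 in *Mnt*, 193 in *Arrdc4* and 219 in *Mxd4*. Each is shown 5′ to 3′ on the strand of its gene with the E-box in capitals. The stretches are chr12:76962234-76962263 (minus strand) for *Max*, chr11:101087238-101087267 (plus) for *Mlx*, chr5:135089780-135089809 (plus) for *Mlxipl*, chr11:74830789-74830818 (plus) for *Mnt* and chr7:68749414-68749443 (minus) for *Arrdc4*.
Max: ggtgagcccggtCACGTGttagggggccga
Mlx: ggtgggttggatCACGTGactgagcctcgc
Mlxipl: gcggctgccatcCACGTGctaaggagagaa
Mnt: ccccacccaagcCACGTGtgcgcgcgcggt
Arrdc4: aaaggtcctgtgCACGTGcactatggtgtc

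For *Mxd4*, the only tested member whose groups did not overlap, all 250 bases before the start are given, chr5:34187711-34187960 on the minus strand, with the E-box in capitals.
Mxd4: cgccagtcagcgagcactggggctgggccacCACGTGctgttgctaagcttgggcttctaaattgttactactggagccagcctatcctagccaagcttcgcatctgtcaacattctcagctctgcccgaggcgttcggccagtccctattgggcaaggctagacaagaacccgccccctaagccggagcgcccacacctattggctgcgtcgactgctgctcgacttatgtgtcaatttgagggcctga

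Genes with an E-box in the window thus lay on both sides of the threshold, and included *Max* and *Mnt*, whose log2 fold changes were 0.02 and -0.09.

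The cofactors and targets of the network were described by list, and the shares to set beside each count are those of all genes, 10.3% higher and 11.7% lower without a block. Among 16 tested genes for MYC cofactors and turnover, 1 rose and 2 fell (median log2 fold change 0.02). *Bin1* (NM_009668), which encodes a MYC-interacting adaptor protein, fell from 0.42, 0.65, 0.96 and 1.18 in control replicates 1 to 4 to -0.64, -0.76, -0.38 and -0.45 in *L3mbtl2*-KD replicates 1 to 4. No arrays overlapped, and 39% of the control intensity remained (limma adjusted p = 0.00174). *Kat5*, the TIP60 acetyltransferase, fell by 0.61 on the log2 scale (limma adjusted p = 0.00159). *Cdk9*, the elongation kinase of P-TEFb, rose by 0.49 (limma adjusted p = 0.0201). The limma adjusted p of *Cdk9* was 0.0537 without control replicate 3, 0.0544 without *L3mbtl2*-KD replicate 3, 0.0556 without *L3mbtl2*-KD replicate 4 and 0.0532 with no filter on dim probes, with 0.0025 to 0.0556 over all alternatives. With the replicate block 3 genes of this list were higher and 4 lower, where the block gave 23.6% and 25.7% of all genes. *Zbtb17* was not well above background, and *Skp2* had no named probe.

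Of 12 SIN3 and NCoR corepressor genes, 2 rose and 0 fell in limma, and 3 and 1 had an unadjusted p under 0.05. *Hdac2*, a histone deacetylase that is also a PRC1.6 subunit, was 1.28-fold higher (log2 fold change 0.36, limma adjusted p = 0.0131). *Sin3b* passed through its dimmer probe (0.95, limma adjusted p = 0.0105), which was above background on 4 *L3mbtl2*-KD arrays and 1 control array and so entered the test through the knockdown group. For this probe normexp correction gave a log2 fold change of 0.36 (limma adjusted p = 0.0171), so its size depends on how background is handled. Its brighter probe, of another transcript, had a log2 fold change of 0.01 (limma adjusted p = 0.96), so the probes disagree. Of all genes 10.3% rose and 11.7% fell. The replicate block gave 4 higher and 2 lower genes, against 23.6% and 25.7% of all genes, and of these *Sin3b* and *Ncor1* passed only through a dimmer probe.

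Of 18 MYC-MAX growth targets, such as nucleolar, glycolytic and nucleotide synthesis genes, 0 rose and 0 fell in limma. At an unadjusted p under 0.05, 1 was higher and 1 lower, against 16.9% and 18.8% of all genes. The median log2 fold change of the 18 targets was 0.06, with 14 genes higher and 4 lower and values from -0.64 to 0.38. With the replicate block 3 were higher (*Nolc1*, *Nop56* and *Pa2g4*) and 3 lower (*Ccnd2*, *Ldha* and *Ncl*), against 23.6% and 25.7% of all genes. With the slide as a block 1 was higher and 1 lower, against 13.9% and 15.3%. Of the 6 genes with the replicate block, only *Nolc1* and *Ccnd2* passed on the standing probe, the one with the highest mean. On that probe *Ldha* and *Ncl* had log2 fold changes of 0.02 and 0.05, so their probes disagree in sign. The dimmer probe of *Nolc1* had a log2 fold change of -0.02 against 0.38 on the standing probe, and the block's adjusted p in limma was 0.11 for *Nop56* and 0.724 for *Pa2g4*. Of 8 other E-box factors tested, among them *Usf1*, *Tfe3*, *Mitf* and *Srebf2*, 0 rose and 0 fell in limma and 0 had an unadjusted p under 0.05 (median -0.10, 1 higher and 7 lower). *Srebf2* and *Tfe3* were lower with the replicate block, 2 of 8, against 25.7% of all genes.

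Of 2 targets of MLX and MondoA, 1 fell. *Arrdc4* (NM_025549), an arrestin-like inhibitor of glucose uptake, was at 1.88, 1.42, 1.39 and 1.67 in control replicates 1 to 4 and at 1.21, 1.09, 0.62 and 0.68 in *L3mbtl2*-KD replicates 1 to 4. No arrays overlapped, and the level was 61.9% of control (log2 fold change -0.69, limma adjusted p = 0.0253). The limma adjusted p was 0.063 without control replicate 4, 0.0654 without *L3mbtl2*-KD replicate 3, 0.0683 without *L3mbtl2*-KD replicate 4 and 0.0626 with no filter on dim probes, and it lay between 0.00964 and 0.0683 over all alternatives. A dimmer *Arrdc4* probe, of another transcript, had overlapping groups and a log2 fold change of -0.57. Its limma adjusted p was 0.299, and 0.0157 with the replicate block. *Txnip*, the related thioredoxin-binding protein, had a log2 fold change of -0.45 with an interval from -1.09 to 0.19 (limma adjusted p = 0.301). It was higher than its control only in replicate 1.

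The PRC1.6 subunits, through which MAX and L3MBTL2 meet, included 3 genes that rose and 2 that fell, the siRNA target among them, of 15 tested, against 10.3% and 11.7% of all genes. *E2f6* (NM_033270), the DNA-binding repressor of the complex, was at 1.41, 1.28, 1.32 and 1.56 in control replicates 1 to 4 and at 1.95, 1.74, 1.95 and 2.15 in *L3mbtl2*-KD replicates 1 to 4. No arrays overlapped (1.47-fold, limma adjusted p = 0.011). *Yaf2* rose by 0.41 on the log2 scale (limma adjusted p = 0.0183) and *Hdac2* as given above, and *Ehmt2*, which encodes an H3K9 methyltransferase, fell to 78.6% of control (limma adjusted p = 0.0149), beside *L3mbtl2* itself. The limma adjusted p of *Yaf2* was 0.0553 without control replicate 3, 0.0504 without *L3mbtl2*-KD replicate 4 and 0.051 with no filter on dim probes, in a range from 0.00501 to 0.0553 over all alternatives. With the replicate block 5 were higher and 3 lower, against 23.6% and 25.7% of all genes, with *Ehmt1* among the higher only through a dimmer probe.

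**Figure D3:**
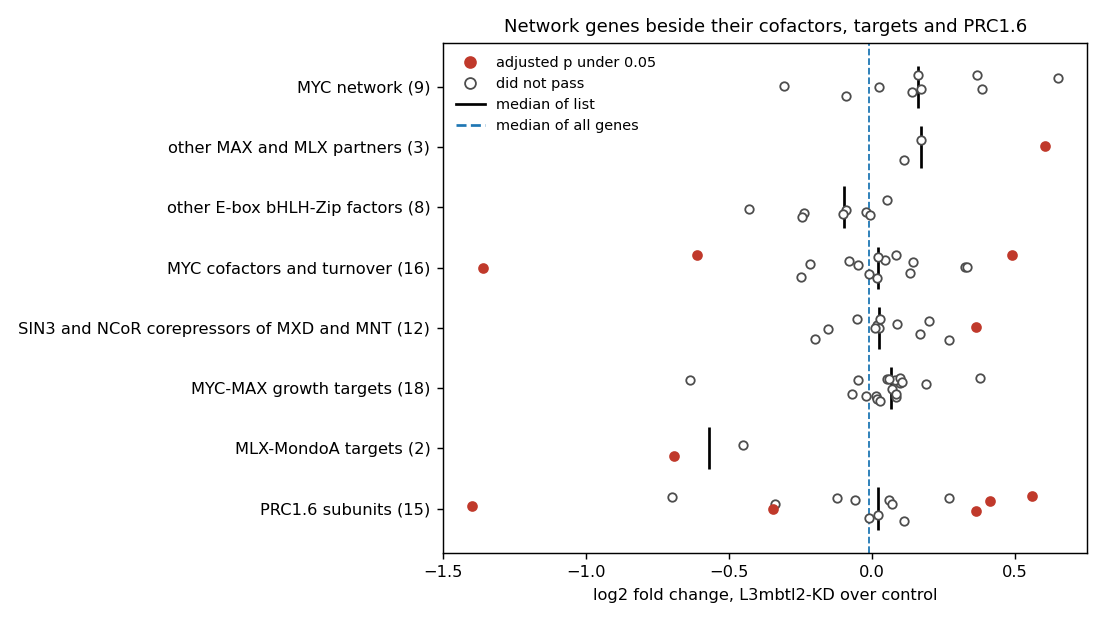
Log2 fold change of *L3mbtl2*-KD over control for each tested gene (on the probe that stands for it) in 8 lists, with the number tested in brackets. Filled points passed an adjusted p under 0.05, black bars are list medians and the dashed line is the median of all genes (-0.01); no network gene is filled, and *Sin3b*, which passed through another probe, is open.

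Markers of other cell types differed between the groups, and their part in the values above was not tested. The shares of all genes to set beside the marker counts are again 10.3% higher and 11.7% lower without a block. Of 14 feeder fibroblast genes tested, 9 fell and 1 (*Loxl1*) rose. Among the 9, *Col3a1* and *Dcn* exceeded background clearly on 0 and *Thbs1* on 1 of the 4 knockdown arrays, so they entered the test through the control group and the size of their fall is uncertain. The summed normalized intensity of all 16 feeder genes was 6.35, 14.2, 12.5 and 15.8 in control replicates 1 to 4 and 5.83, 5.99, 6.67 and 6.66 in *L3mbtl2*-KD replicates 1 to 4. The *Tagln* probe gave the largest part of this sum on the array scale, and by the sum control replicate 1 lay among the knockdown arrays. The median log2 intensity of the list was -2.56, -1.71, -2.04 and -1.44 in control replicates 1 to 4 and -3.72, -3.50, -3.58 and -3.59 in *L3mbtl2*-KD replicates 1 to 4. By the median every control array was above every knockdown array, with control replicate 1 the lowest control. *Lum* and *Postn* were not well above background on any array. Without control replicate 1 the log2 fold change was 0.86 for *Myc*, -0.37 for *Mycn*, 0.43 for *Mxd4* and 0.28 for *Mlx*, and 0 members passed.

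Germ cell genes, which include the sorting reporter's *Ddx4*, rose in 7 of 8 cases. Their sum was 51.2, 35.2, 29.2 and 36.4 in control replicates 1 to 4 and 157, 135, 128 and 159 in *L3mbtl2*-KD replicates 1 to 4, with the *Stra8* probe the largest part. Two-cell-like genes rose in 5 of 6 cases, with the *Zscan4c* probe the largest part of sums of 13.8, 15.0, 10.4 and 10.4 against 40.3, 36.9, 21.4 and 21.1. For both lists every knockdown array was above every control array, and all genes of these lists were above background on every array.

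Primitive endoderm genes fell in 5 of 7 cases. With the replicate block 6 were lower, against 25.7% of all genes. The block added *Sox7* (limma adjusted p = 0.0132, and 0.11 without the block). The sums of the list were 1.85, 2.20, 1.64 and 2.05 in control replicates 1 to 4 and 1.09, 1.91, 1.44 and 1.17 in *L3mbtl2*-KD replicates 1 to 4. These sums overlapped, and the *Gata6* probe, with a log2 fold change of 0.06, gave their largest part. The median log2 intensity of the list did not overlap, at -2.31, -2.51, -2.74 and -2.26 in control replicates 1 to 4 and -3.58, -3.51, -3.96 and -4.65 in *L3mbtl2*-KD replicates 1 to 4. Of the genes that fell, *Foxa2* exceeded background clearly on 0, *Dab2* on 1 and *Sox17* on 3 of the 4 knockdown arrays, so they entered the test through the control group and the size of their fall is uncertain. With normexp the log2 fold change went from -2.53 to -0.95 for *Dab2* and from -2.04 to -0.41 for *Foxa2*, which then did not pass (limma adjusted p = 0.0762, range 0.00179 to 0.0762). Of 6 trophectoderm genes 0 rose and 0 fell in limma. At an unadjusted p under 0.05, 1 was lower (*Krt7*), against 18.8% of all genes. With the replicate block 1 was lower (*Cdx2*), against 25.7%. *Krt7* and *Cdx2* exceeded background clearly on 3 of the 4 knockdown arrays and so entered the test through the control group. The sums of the list were 6.26, 11.6, 9.31 and 6.64 against 6.07, 9.58, 9.20 and 7.24. The *Tfap2c* probe gave the largest part and *Elf5* was not above background on any array. Here the groups overlapped by the sum and by the median.

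Pluripotency genes, which define the labelled cell type, were all above background on every array. Their sum was 337, 345, 327 and 321 in control replicates 1 to 4 and 327, 349, 312 and 334 in *L3mbtl2*-KD replicates 1 to 4, with the *Dppa5a* probe the largest part. These sums overlapped, while the median log2 intensity of the list ran from 3.40 to 3.68 on the control arrays and from 2.96 to 3.13 on the knockdown arrays, so it was lower on every knockdown array. Of the 12 genes 9 were lower and 3 higher, with a median log2 fold change of -0.25. In limma 1 of them (*Klf4*) fell, by 0.70 on the log2 scale (limma adjusted p = 0.0274), and 0 rose. At an unadjusted p under 0.05, 3 were lower and 0 higher, against 18.8% and 16.9% of all genes. The largest difference of the list was that of *Nanog*, at 40.2% of control, with a log2 fold change of -1.32, an interval from -2.43 to -0.20 and overlapping groups, and it did not pass (limma adjusted p = 0.0962). The limma adjusted p of *Klf4* was 0.0692 without control replicate 3, 0.0679 without *L3mbtl2*-KD replicate 3, 0.0709 without *L3mbtl2*-KD replicate 4 and 0.067 with no filter on dim probes, in a range from 0.00578 to 0.0709 over all alternatives. With the replicate block 1 gene was higher and 4 were lower, against 23.6% and 25.7% of all genes.

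**Figure D4:**
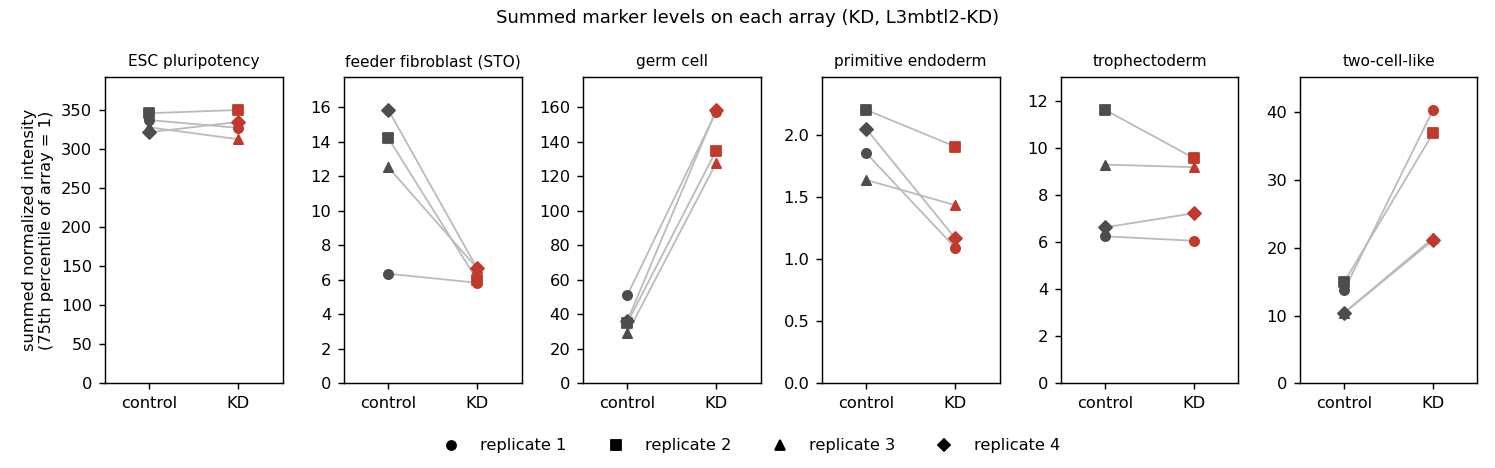
Summed normalized intensity of each marker list on each array (75th percentile of the array = 1), in control and *L3mbtl2*-KD ESCs, with lines joining samples of one replicate number. Germ cell and two-cell-like sums are higher on every *L3mbtl2*-KD array, while the feeder sum of control replicate 1 (6.35), to which the *Tagln* probe gives the largest part, lies among those of the knockdown although its list median (-2.56) lies above theirs.

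Across the 8 arrays, the genes whose values ran most nearly with those of *Max*, among 13607 genes searched, were *Agap1* (Pearson r = 0.971), *Myo10* (0.968) and *Mpp5* (0.964). For *Mycn* they were *Ankmy2* (0.978), *Tmem106b* (0.970) and *Dip2a* (0.967). The arrays share slides, replicate numbers and groups, and so many genes were searched that high values arise readily, so these are descriptions only.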

How the data were processed

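The authors deposited, for each array, the background-subtracted intensity of every spot from Agilent Feature Extraction 10.7.3.1, and a table of log2 values. That table matched the 75th-percentile-shifted values centred on each probe's median (lowest correlation of an array 0.999944). Members and lists were chosen with earlier results of these data known.

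The 75th percentile of the log2 intensities of an array's non-control spots was subtracted from its values. Outlier spots were then removed and replicate spots averaged. Of 39429 probes, 26055 were named through RefSeq (GRCm38.p6). Testing took the 23518 probes that the scanner software called well above background throughout at least 1 group, 78 of them with a missing value. Groups of 4 arrays were compared with limma 3.58.1 in R 4.3.3, two-sided, with Benjamini-Hochberg adjustment over these probes. A gene passed when at least 1 probe had an adjusted p under 0.05. The tested probe with the highest mean stands for a gene. Single genes also had a two-sided exact permutation test (smallest p 0.0286). The script was tested on simulated data.

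Named were all members with every probe, *L3mbtl2*, *Mga*, *Mlxip* and *Mlxipl*, the passing genes of each list (at most 5 per direction, by adjusted p) and the 3 genes most like *Max* and *Mycn*. Others named, such as *Txnip* and genes that passed only with a block, were chosen after their values were seen.

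The arrays lay on 2 slides with 2 arrays of each group on each, and the groups took different positions, so position and group cannot be told apart. Deviations from group means correlated at 0.58, 0.54, 0.43 and 0.38 between samples of one replicate number and at -0.44 to 0.25 otherwise. Samples of one number also shared a slide and had successive positions on it. Whether the numbers pair the samples as prepared, or follow slide and position, therefore cannot be told apart.

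Alternatives were normexp background correction (offset 50, on median spot and background intensities), quantile normalization, the deposited log2 table, no filter, probes above background on all arrays, robust eBayes with an intensity trend, blocks for slide or replicate number, other probe rules and leaving out each array.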

Additional observations from a re-analysis of the deposited data

Results flagged for a closer look

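Dixon's ratio (gap to the nearest array over the range) singled out 1 array in 5 of 90 groups of 4, and 4.5 would be expected by chance. The screen did not cover every gene of the lists. Control replicates 1 to 4 of *Ring1*, a PRC1.6 gene outside the screen, stood at -2.64, -2.48, -1.05 and -2.65. *Mlxipl* in *L3mbtl2*-KD replicate 2 stood at -0.83, the other 3 arrays of the group averaging -0.57 (ratio 0.8293). *Hdac2* in control replicate 3 was at -2.64 against -2.55 (0.877), and *Yaf2* in *L3mbtl2*-KD replicate 4 at 1.14 against 0.97 (0.856). *Dab2* in *L3mbtl2*-KD replicate 1 was at -4.41 against -5.53 (0.903), with *Dab2* above background on only 1 *L3mbtl2*-KD array, so that this difference is between dim values. *Sox17* in control replicate 3 was at -2.74 against -2.51 (0.865). No network gene had such an array, and no cause was tested.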

How the results depend on the processing

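The count of network genes passing was 0 higher and 0 lower in 13 and 16 of 17 alternatives. It was 1 higher with quantile normalization (*Mxd4*) and 1 with the slide as a block (*Mlx*), and with the replicate block 3 were higher and 1 lower. With each array left out it was 0 to 1 higher and 0 lower. The count above 2-fold was 0 in all 17.

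Over all genes, 1406 higher and 1603 lower became 3219 and 3505 with the replicate block, a fit within replicate numbers. They became 818 and 1046 with no filter on dim probes, where more probes were tested. Leaving out each array gave 785 to 1397 higher and 997 to 1580 lower genes.

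*Max* reversed to -0.0036 with normexp, -0.0242 with quantile normalization and -0.0189 within slide 2, with -0.0263 to 0.0801 over arrays left out. *Mxd1* reversed to -0.0133 within slide 1. The cause was not tested. With each array left out *Myc* ranged from 0.36 to 1.05, *Mycn* from -0.40 to -0.22, *Mxd4* from 0.28 to 0.43 and *Mlx* from 0.28 to 0.44. The ranges were 0.07 to 0.26 for *Mycl*, 0.04 to 0.29 for *Mxd1*, 0.02 to 0.26 for *Mxd3* and -0.16 to -0.0065 for *Mnt*. No other tested member changed its side of the threshold with the replicate block. Signal over background limits *Mxi1* and the dimmer probes of *Mxd4* and *Sin3b*.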
